A study of Sus scrofa with 48 samples.

Results

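Subcutaneous adipose tissue (SCAT) of pigs that differed in both diet and line was compared at the transcript level. High RFI pigs on the diet rich in fat and fiber (HF_RFIpl, 12 arrays) were set against low RFI pigs fed a low fat, low fiber diet rich in starch (LF_RFIneg, 12 arrays). The members were the arrays with these words in their titles, 24 of the 48 arrays of the experiment. Residual feed intake (RFI) is the part of a pig's feed intake that its growth and body composition do not predict, so that low RFI pigs (RFIneg) are the efficient animals and high RFI pigs (RFIpl) the inefficient ones.

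All pigs were Large White barrows, labelled as 132 days of age at tissue collection, from lines selected in opposite directions on RFI, and each array held the RNA of 1 pig. In the HF diet, rapeseed and soybean oils stood in for part of the starch and wheat straw supplied fiber, and the LF diet was richer in starch. Both were offered ad libitum. HF_RFIpl and LF_RFIneg differed in both diet and line, so that diet and line cannot be told apart within this pair. The remaining groups, HF_RFIneg and LF_RFIpl (12 arrays each), differ from each of these in 1 factor and form the opposite pair, in which the diets are exchanged between the lines. The lines are the product of selection on RFI, so that any other difference between them goes with RFI. Fat and fiber changed together with starch between the diets.

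In the pig, adipose tissue is a main site of fatty acid synthesis, where glucose carbon passes through glycolysis, pyruvate dehydrogenase and citrate to acetyl-CoA, and NADPH comes from malic enzyme, isocitrate dehydrogenase and the pentose phosphate pathway. Dietary starch supplies the glucose for this route, whereas dietary fat supplies fatty acids that adipocytes take up and store. Lipolysis, mitochondrial and peroxisomal oxidation, protein folding in the endoplasmic reticulum and defense against oxidants are further functions of these cells, next to the matrix, vessels, nerves and immune cells of the tissue.

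Levels are given as the log2 of the background-subtracted brightness of a probe minus the median of all kept probes on the array, so that 0 is the level of the median probe. Levels of different probes are not comparable with each other, and each gene is represented by its brightest probe. The number of arrays, 12 a group, sets the precision. In HF_RFIpl 73.1% ± 4.79 of the probes (SD, n = 12, from 62.2% to 78.7%) were well above background, and in LF_RFIneg 74.2% ± 2.53 (from 69.3% to 78.6%), with a permutation test (two-sided, 100000 resamples) at p = 0.508. The array median before centering was 8.44 ± 0.17 in HF_RFIpl and 8.29 ± 0.16 in LF_RFIneg (SD, n = 12), which differed by 0.15 (p = 0.0367 in the same permutation test) before centering removed it. With that median as a covariate 1735 genes were called for the pair, against 1386 without it. Pairs of arrays correlated at r = 0.965 to 0.993 across genes, each at its brightest probe.

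The first question was how many genes separated the inefficient pigs on the fat and fiber diet from the efficient pigs on starch. The cut-offs of the study were used to call a gene, namely an adjusted p (limma, Benjamini-Hochberg, all 48 arrays in 1 fit) under 0.08 with an unadjusted p under 0.01 and a fold of more than 1.1. Of 11107 genes tested, 1386 (12.5%) were called, 390 (3.51%) of them over-expressed and 996 (8.97%) under-expressed in HF_RFIpl. At the level of single probes, 5266 of 44356 (11.9%) were called. The differences were small. Their median size among the called genes was 0.33 on the log2 scale, and 45 called genes differed by more than 1 on that scale, 22 of them higher and 23 lower in HF_RFIpl. The excess of under-expressed genes depended on how arrays were scaled, with 608 higher and 523 lower after scaling to the 75th percentile, and 509 higher and 637 lower after quantile normalization.

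The opposite pair, HF_RFIneg minus LF_RFIpl, shared no array with HF_RFIpl minus LF_RFIneg and gave 159 called genes (1.43%), 62 higher and 97 lower. Its split depended on the scaling too, with 86 higher and 64 lower after scaling to the 75th percentile, and 79 and 90 after quantile normalization. Comparisons in which a single factor changed gave fewer calls than the pair as well. The diet step within the low RFI line (HF_RFIneg minus LF_RFIneg) gave 273 (2.46%, 70 higher and 203 lower) and that within the high RFI line (HF_RFIpl minus LF_RFIpl) gave 166 (1.49%, 28 higher and 138 lower). The line step under the HF diet (HF_RFIpl minus HF_RFIneg) gave 1 (0.009%) and that under the LF diet (LF_RFIpl minus LF_RFIneg) gave 7 (0.063%, 2 higher and 5 lower). No gene (0.0%) was called for a diet by line interaction (limma, Benjamini-Hochberg), and 99 genes had an unadjusted p under 0.05 for it. The analysis of variance of the methods gave 1372 calls for HF_RFIpl minus LF_RFIneg and 149 for the opposite pair.

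The arrays had been scanned on 2 dates with 6 arrays of each group on each. Within the first date alone 190 genes were called for HF_RFIpl minus LF_RFIneg, and 340 for the opposite pair. Within the second date the counts were 284 and 0. The larger count of the pair was therefore found on all 48 arrays and within the second date, but not within the first. With scan date as a block the counts were 1594 and 233. With the array's position on its slide as a block the count of the pair fell to 896. Positions were not balanced between the groups, so that position and group cannot be fully told apart. Of the 1386 called genes, 1384 had the same sign within both dates (71.8% of all genes did), and 915 (66.0%) had the same sign on all 6 slides (17.6% of all genes did), although they had been chosen on these same arrays.

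**Figure D1:**
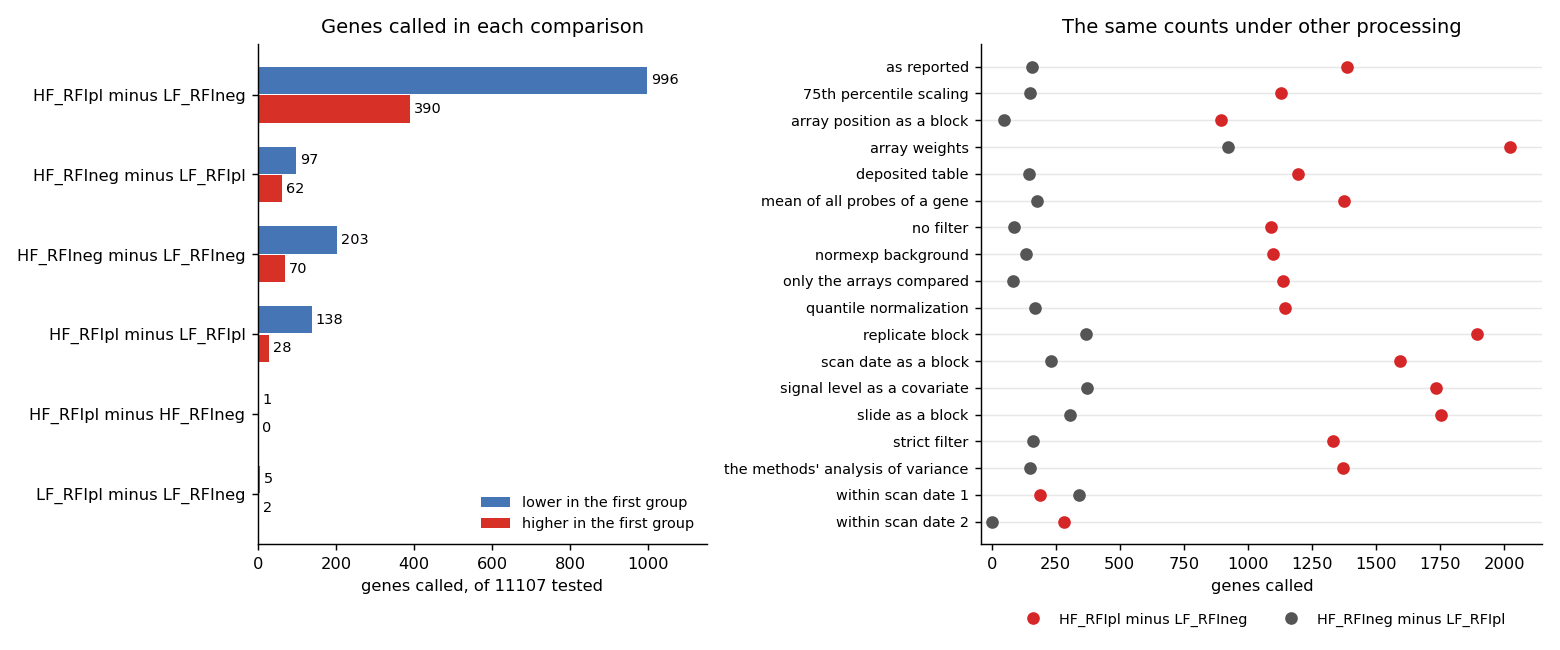
Left, number of genes called lower (blue) and higher (red) in the first group named, of 11107 tested, for 6 comparisons between groups of 12 arrays. Right, the number called in each pair under each way of processing the data, with red points for HF_RFIpl minus LF_RFIneg (190 to 2023) and grey points for HF_RFIneg minus LF_RFIpl (0 to 921). The red point lies to the right of the grey point in every row except that of the first scan date.

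SLC16A13, a monocarboxylate transporter of the plasma membrane, was the gene with the smallest adjusted p. Its level lay between 1.28 and 2.81 (median 2.1) in HF_RFIpl and between 2.86 and 4.17 (median 3.30) in LF_RFIneg. All 12 HF_RFIpl arrays were below all 12 LF_RFIneg arrays, and SLC16A13 was the only tested gene without overlap between these groups (0.009% of genes), while no gene was without overlap in the opposite pair (0.0%). The difference was -1.31 ± 0.18 (SE, log2; 2.49-fold lower in HF_RFIpl, limma adjusted p = 1.5e-05), and a second SLC16A13 probe gave -0.50 and was called too. In the opposite pair the difference was -0.38 (adjusted p = 0.324).

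The carboxylesterase CES1, which hydrolyzes esters and lipids, had the largest difference of all called genes. Its level ran from -1.86 to 6.72 (median 4.68) in HF_RFIpl and from 5.38 to 7.17 (median 6.85) in LF_RFIneg. HF_RFIpl replicates 3, 11 and 12 stood far below the rest at -1.86, -0.09 and 0.49, while the other 9 HF_RFIpl arrays were at 3.85 or above. A total of 8 HF_RFIpl arrays lay below every LF_RFIneg array. The mean difference was -2.90 ± 0.65 (SE; 7.48-fold lower, limma adjusted p = 0.00379), and it stayed between -3.17 and -2.39 when any 1 array was left out. All 7 CES1 probes were called lower, from -2.93 to -1.48.

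The symbol CES3, another carboxylesterase, was listed with nearly the same values (-2.87 ± 0.65, limma adjusted p = 0.00379), and the sequences are printed to show how much of them the probes have in common. The 60-base probe used for CES3 shares 58 consecutive bases with the probe used for CES1, of which the first 30 are printed first. The other CES3 probe is printed second. It has no more than 6 consecutive bases in common with any CES1 probe, and capitals mark 1 of several such stretches.
CES1 and CES3, shared stretch: ggagggggaatttctgtagctgcggcctca
CES3, other probe: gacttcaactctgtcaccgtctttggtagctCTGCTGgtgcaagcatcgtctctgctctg
That second CES3 probe differed by -0.05 (adjusted p = 0.883 over probes) and was well above background on 8 of 12 arrays in each group. Only this probe gives a value for CES3 apart from CES1.

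CYP4F2, LCN2 and RBP2 followed among the most under-expressed genes. CYP4F2, a cytochrome P450 that hydroxylates fatty acids and vitamin E, lay between -2.81 and -0.29 (median -2.41) in HF_RFIpl and between -1.92 and 0.91 (median -0.17) in LF_RFIneg, with 9 HF_RFIpl arrays below every LF_RFIneg array (-1.83 ± 0.33, limma adjusted p = 0.000682). LCN2, a secreted lipocalin that binds iron-carrying siderophores, was at -1.03 to 1.39 (median 0.07) in HF_RFIpl against -0.36 to 3.25 (median 1.93) in LF_RFIneg, with more overlap (-1.77 ± 0.35, adjusted p = 0.00109). Its 3 probes hold 1 identical sequence and gave -1.80 to -1.76. RBP2, which binds retinol inside cells, was at -4.86 to -3.15 (median -3.92) against -3.94 to -0.84 (median -2.34), and only 7 of 12 HF_RFIpl arrays were well above background there (-1.67 ± 0.41, adjusted p = 0.00717).

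MT1A, a metallothionein that binds zinc and copper, overlapped widely between the groups, with -1.72 to 4.76 (median 2.08) in HF_RFIpl and 1.35 to 5.58 (median 3.91) in LF_RFIneg (-1.90 ± 0.60, limma adjusted p = 0.0372), and its call ended with signal level as a covariate. TRAF6, a ubiquitin ligase of inflammatory signaling, was spread widely in both RFIpl groups. In HF_RFIpl it was on 6 arrays between 0.93 and 1.55 and on the other 6 between 2.63 and 3.64, whereas LF_RFIneg arrays were all between 3.1 and 3.93 (median 3.66). In LF_RFIpl replicates 1, 5 and 7 were at 1.61, 1.1 and 1.51 and the others at 2.71 to 3.89, and in HF_RFIneg all arrays were at 2.74 to 3.79. The difference was -1.41 ± 0.28 (adjusted p = 0.00117), and the other TRAF6 probe gave -0.36 and was also called. PITX1, a homeobox transcription factor, was at -6.78 to -2.79 (median -3.89) against -3.77 to -1.45 (median -2.47) and was well above background on 6 of 12 HF_RFIpl arrays and all 12 LF_RFIneg arrays (-1.85 ± 0.36, adjusted p = 0.00116). DIO1, the deiodinase that activates thyroid hormone (-1.51 ± 0.47), and UNC45B, a myosin chaperone (-1.52 ± 0.49), were likewise well above background on 6 HF_RFIpl arrays only, and on 11 and 9 LF_RFIneg arrays. Of this pair of groups only LF_RFIneg met the filter of 9 arrays for PITX1, DIO1, UNC45B and RBP2, so that their differences rest in part on signal near background in HF_RFIpl and their sizes are uncertain. The DIO1 call ended with slide position as a block and the UNC45B call with signal level as a covariate.

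WDHD1, a DNA-binding factor of replication, was over-expressed. It lay between 0.93 and 1.72 (median 1.24) in HF_RFIpl and between -1.28 and 1.02 (median 0.04) in LF_RFIneg, and 10 HF_RFIpl arrays were above every LF_RFIneg array (1.39 ± 0.22, 2.63-fold higher, limma adjusted p = 0.000206). Its 3 probes were all called, at 0.37 to 1.39, although the probe at 1.04 was well above background on only 6 LF_RFIneg arrays. CCL21, the chemokine by which lymphatic vessels draw in lymphocytes and dendritic cells, was at 2.54 to 4.64 (median 3.54) in HF_RFIpl and at -2.99 to 4.05 (median 1.92) in LF_RFIneg, where replicate 7 was the lowest. The difference was 1.89 ± 0.44 (adjusted p = 0.00446), and it was 0.65 within the first scan date and 3.13 within the second.

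SAL1, a lipocalin of pig saliva, spread widely, from 4.01 to 8.34 (median 7.09) in HF_RFIpl and from 2.85 to 7.40 (median 4.56) in LF_RFIneg. Its difference of 1.77 ± 0.63 (limma adjusted p = 0.0663) lost the call when any of 15 single arrays was left out. GFRA1, a receptor for the neurotrophic factor GDNF, was at 1.20 to 2.95 (median 2.22) against -0.28 to 2.49 (median 0.68), a difference of 1.23 ± 0.26 (adjusted p = 0.00245). The imprinted gene MAGEL2 (1.37 ± 0.37), the leukocyte adhesion protein PARVG (1.35 ± 0.35) and the pigment granule linker MLPH (1.29 ± 0.28) were also called higher. PARVG was well above background on only 6 LF_RFIneg arrays, so that its difference rests in part on signal near background and its size is uncertain. OAZ3, an inhibitor of ornithine decarboxylase, and ENPP6, a choline phosphodiesterase, were also among the 10 most over-expressed genes and are described with the opposite pair.

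**Figure D2:**
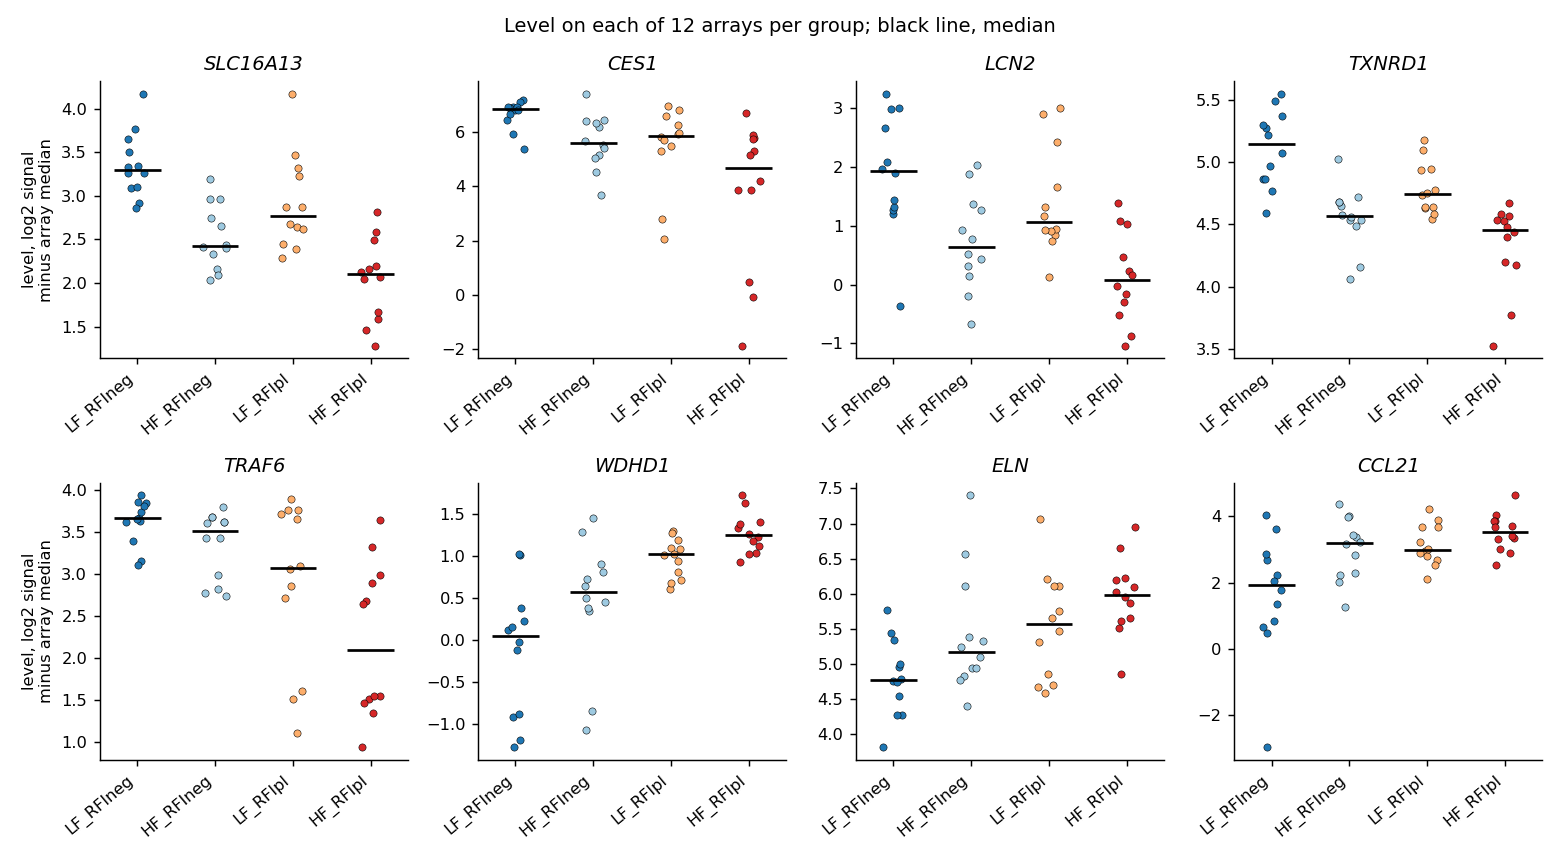
Level of 8 genes (log2 signal minus array median) on each of the 12 arrays of the 4 groups, with a black line at the median. SLC16A13 shows no overlap between HF_RFIpl (1.28 to 2.81) and LF_RFIneg (2.86 to 4.17), CES1 has 3 HF_RFIpl arrays below 1, and TRAF6 falls into a lower and an upper set of 6 HF_RFIpl arrays.

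The difference between HF_RFIpl and LF_RFIneg is by construction the sum of a diet step and a line step, and it can be reached by way of HF_RFIneg or of LF_RFIpl. These steps share arrays with the pair and are given as values only. For SLC16A13 the diet steps were -0.82 and -0.87 in the low and the high RFI line, and the line steps were -0.49 under HF and -0.44 under LF, so that both factors pointed the same way. For CES1 the diet steps were -1.01 and -1.71 and the line steps -1.90 and -1.19. HK2 and PPARD took nearly all of their difference from the diet step on either route. Their diet steps were -0.82 and -0.58 in the low RFI line and -0.78 and -0.62 in the high RFI line, and their line steps were 0.04 and -0.07 under HF and -0.0026 and -0.03 under LF. The steps of SOX9 depended on the route, with a diet step of -1.33 and a line step of -0.05 by way of HF_RFIneg, and -1.80 and 0.42 by way of LF_RFIpl. OAZ3 had diet steps of -0.13 and 0.26 and line steps of 1.51 and 1.11 on these routes, and ENPP6 diet steps of 0.31 and 0.14 and line steps of 0.92 and 1.09. No steps are given in the text for PITX1, DIO1, UNC45B, RBP2 and PARVG, each well above background on only 6 or 7 arrays of HF_RFIpl or LF_RFIneg.

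A set of 20 genes was called for the pair itself, for the sum of both pairs (the diet contrast over both lines, 1528 genes, 13.8%) and for the difference between the pairs (the line contrast over both diets, 131 genes, 1.18%). The pair contrast is by construction the mean of that sum and that difference, so that these calls are not separate support for a gene. Under-expressed genes with all of these calls were SLC16A13, already given, EPHX1, SLC48A1 and PHYH. PITX1 met the same calls, but with signal near background in HF_RFIpl. EPHX1, the microsomal epoxide hydrolase, was at 2.20 to 3.55 (median 3.33) in HF_RFIpl and at 3.27 to 4.52 (median 4.10) in LF_RFIneg, where 11 arrays lay above every HF_RFIpl array (-0.87 ± 0.18, limma adjusted p = 0.00177). SLC48A1, a heme transporter, was at 1.96 to 2.80 (median 2.28) against 2.37 to 3.65 (median 3.0), again with 11 LF_RFIneg arrays above every HF_RFIpl array (-0.75 ± 0.14, adjusted p = 0.000807). PHYH starts the peroxisomal breakdown of the branched fatty acid phytanic acid. All 6 of its probes were called lower, and its level was 4.87 to 5.90 (median 5.30) against 5.0 to 6.48 (median 5.97), a difference of -0.65 ± 0.12 (adjusted p = 0.000661).

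Over-expressed genes of the same kind were WDHD1 and GFRA1, already given, and SLC25A27, NME4 and SLCO2B1. SLC25A27, a mitochondrial carrier of the uncoupling protein family, was at 1.22 to 2.96 (median 2.08) against 0.18 to 2.20 (median 1.03), with broad overlap (0.95 ± 0.19, limma adjusted p = 0.00177), and its other probe gave 0.43 and was not called. NME4, a mitochondrial nucleoside diphosphate kinase, was held between 0.56 and 1.05 (median 0.73) in HF_RFIpl and spread from -0.79 to 0.62 (median 0.09) in LF_RFIneg, and 10 HF_RFIpl arrays exceeded every LF_RFIneg array (0.76 ± 0.14, adjusted p = 0.000669). Of its 5 probes, at 0.21 to 0.77, 4 were called. SLCO2B1, an uptake transporter of organic anions, was at 2.61 to 3.75 (median 3.14) against 1.67 to 3.07 (median 2.44), and 8 HF_RFIpl arrays exceeded every LF_RFIneg array (0.74 ± 0.15, adjusted p = 0.00134).

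**Figure D3:**
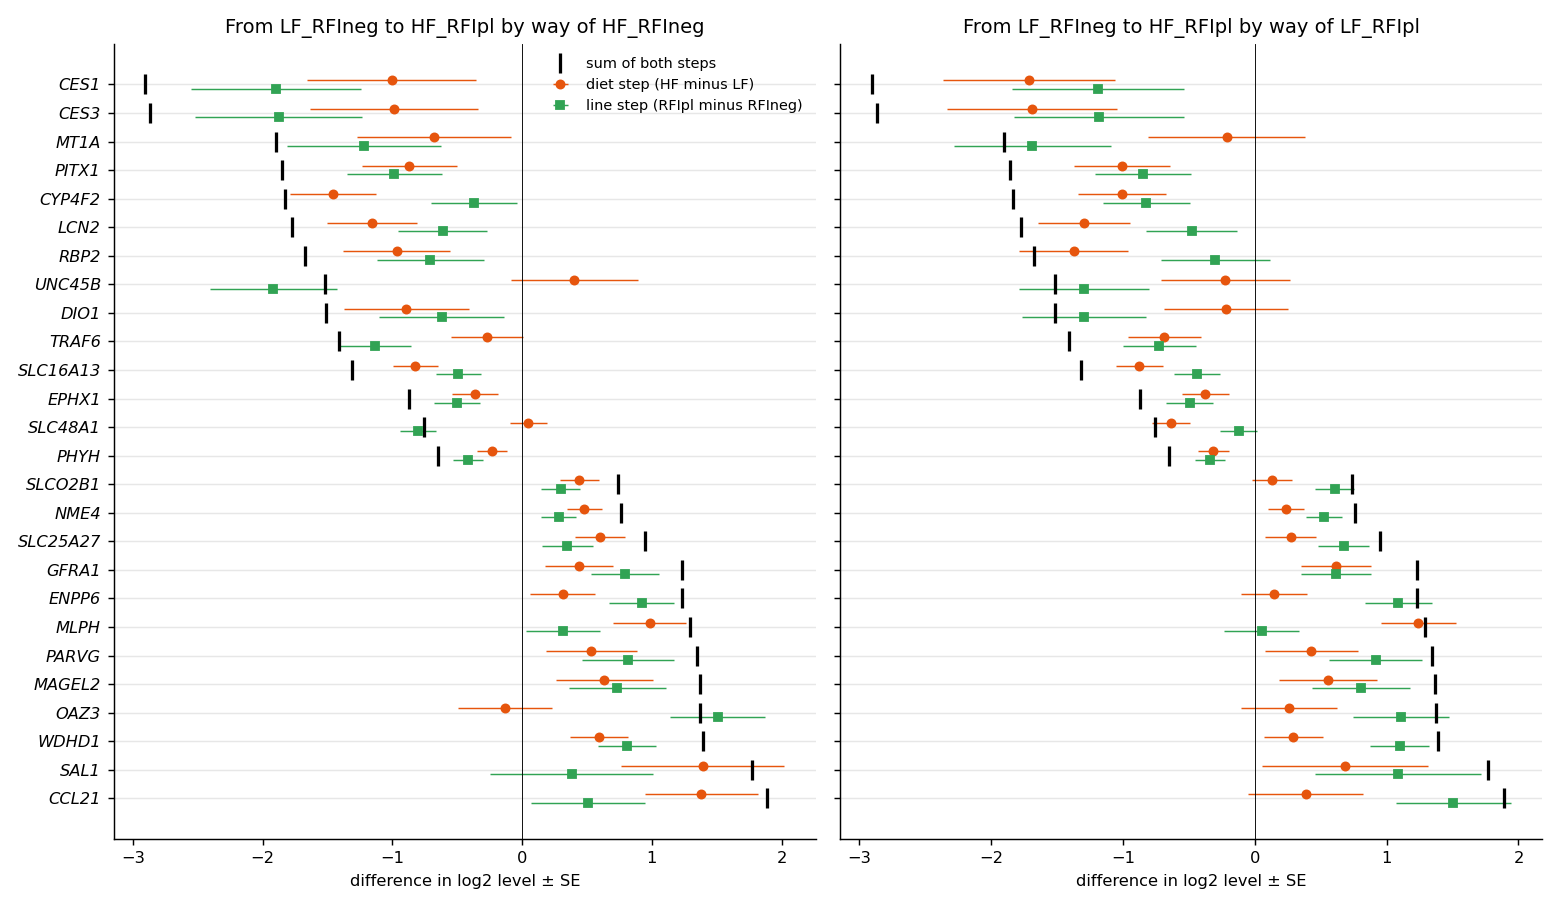
Differences in log2 level ± SE for 26 named genes, split into a diet step (orange) and a line step (green), with a black mark at their sum, HF_RFIpl minus LF_RFIneg. The left panel goes by way of HF_RFIneg and the right panel by way of LF_RFIpl. SLC16A13 has both steps on the same side of 0 on either route (-0.82 and -0.49, -0.87 and -0.44), and OAZ3 has a diet step of -0.13 beside a line step of 1.51 by way of HF_RFIneg and of 0.26 beside 1.11 by way of LF_RFIpl. PITX1, DIO1, UNC45B, RBP2 and PARVG were well above background on only 6 or 7 arrays of HF_RFIpl or LF_RFIneg, so that their steps rest on signal near background.

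Pathways are described by lists of genes, each with the number of members called, to be read against 3.51% of all genes called higher and 8.97% called lower, and with the median log2 difference, to be read against -0.06 over all genes. Within the single scan dates, where 190 and 284 genes were called in all, each list held 0 to 5 calls. In the opposite pair the median was -0.02 over all genes, -0.23 in fatty acid synthesis, -0.16 in glycolysis and -0.20 around pyruvate. It was -0.11 there in oxidative phosphorylation, -0.06 in the proteasome and -0.05 in antioxidant genes. In fatty acid synthesis and NADPH supply 3 of 15 tested members were called, all lower, with a median of -0.39. Malic enzyme ME1, a source of NADPH, was at 5.04 to 7.11 (median 5.98) in HF_RFIpl and at 4.83 to 7.73 (median 7.07) in LF_RFIneg, with the lowest array of all in LF_RFIneg (-0.83 ± 0.27, 1.78-fold, limma adjusted p = 0.0465), with 2 of 3 probes called, and the call ended without any of 4 single arrays. PGD of the pentose phosphate pathway (-0.39 ± 0.14, adjusted p = 0.0564) and cytosolic isocitrate dehydrogenase IDH1 (-0.53 ± 0.18, adjusted p = 0.0519) each lost the call without any of 7 single arrays. Of the enzymes that build and desaturate the fatty acid itself, the brightest probes gave -0.61 ± 0.24 for ACLY (adjusted p = 0.105), -0.18 ± 0.10 for FASN (adjusted p = 0.271) and -0.26 ± 0.13 for SCD (adjusted p = 0.211). None of these passed the test, and whether they differed less than the called members was not tested. The 3 ACLY probes gave -0.85 to -0.61, and 1 of them was called lower. The 5 FASN probes gave -0.56 to -0.18 and the 11 SCD probes -0.47 to -0.17, none of them called. Their transcription factors SREBF1 (-0.19 ± 0.14) and MLXIPL (-0.42 ± 0.21) were not called either. After scaling to the 75th percentile 1 member of the list was called.

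In glycolysis and glucose uptake all 18 tested members had differences below 0, as did 7018 of all 11107 genes, with a list median of -0.25 and 4 members called, all lower. Hexokinase HK2, which phosphorylates glucose, was at 2.78 to 5.23 (median 4.72) in HF_RFIpl and at 4.44 to 5.96 (median 5.32) in LF_RFIneg, and both of its probes were called (-0.78 ± 0.20, limma adjusted p = 0.00913). HK2 was called in the opposite pair too (-0.81, adjusted p = 0.036). Aldolase ALDOA (-0.31 ± 0.10, adjusted p = 0.0362), GAPDH (-0.26 ± 0.09, adjusted p = 0.0545, 1 of 2 probes called) and HK1 (-0.39 ± 0.14, adjusted p = 0.0762) followed, and GAPDH and HK1 lost the call without any of 8 and 22 single arrays, respectively. With quantile normalization 1 member was called, and with 75th percentile scaling or normexp 2.

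Around pyruvate, 2 of 12 members were called, both lower (list median -0.19). PDK1, a kinase that switches off pyruvate dehydrogenase, was at 1.49 to 2.33 (median 2.1) in HF_RFIpl and at 2.06 to 2.99 (median 2.63) in LF_RFIneg, where 11 arrays were above every HF_RFIpl array (-0.56 ± 0.10, limma adjusted p = 0.000624). Its 3 probes gave -0.56 to -0.19, and 2 were called. Pyruvate carboxylase PC, which feeds the citric acid cycle, was at 8.02 to 8.63 against 8.48 to 8.90 (-0.20 ± 0.06, adjusted p = 0.0273). With 75th percentile scaling 1 member was called. In glycogen metabolism 4 of 16 members were called, all lower (list median -0.21). They were UGP2, which makes the glucose donor (-0.32 ± 0.07, 6 of 6 probes called), PPP1R3C, which targets a phosphatase to glycogen (-0.60 ± 0.17), and the glycogen synthase kinases GSK3B (-0.27 ± 0.07) and GSK3A (-0.50 ± 0.17).

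Of the mitochondrial lists, oxidative phosphorylation had 2.27% of its members called and the others 12.5% to 18.8%, beside 12.5% of all genes. In the citric acid cycle 2 of 16 members were called lower (list median -0.16), among them SUCLA2, a subunit of succinyl-CoA synthetase (-0.56 ± 0.15, limma adjusted p = 0.0134). In oxidative phosphorylation 1 of 44 members was called, COX6A1 (-0.23 ± 0.09, adjusted p = 0.0786, 5 of 8 probes called, lost without any of 30 single arrays), although 43 of the 44 had differences below 0 (list median -0.14). In fatty acid oxidation 3 of 26 members were called lower and 1 higher (list median -0.14, and 0.09 in the opposite pair). Among those called lower were ACADVL, which acts on very long chains in mitochondria (-0.36 ± 0.11), and ACAA2 (-0.58 ± 0.21). In branched-chain amino acid catabolism IVD was called higher (0.47 ± 0.16, with 1 of 3 probes called and a range of 0.04 to 0.47), and BCKDHA (-0.28 ± 0.10, 1 of 3 probes called) and HIBCH (-0.26 ± 0.10) lower, of 16 tested (list median -0.11). The only HIBCH probe was not called in the fit over probes. In this list and in the citric acid cycle 1 member each was called with 75th percentile scaling, quantile normalization, normexp or the deposited values, and in oxidative phosphorylation 0 with the first 3 of these and 1 with the last.

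PPARA, the nuclear receptor that drives fatty acid oxidation genes, was called higher in the list through its brightest probe, but its probes disagreed. They are printed because the direction depends on which is read, with capitals in the third for runs of 6 identical bases and only its first 30 bases given.
PPARA probe 1: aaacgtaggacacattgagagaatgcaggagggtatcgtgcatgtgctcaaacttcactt
PPARA probe 2: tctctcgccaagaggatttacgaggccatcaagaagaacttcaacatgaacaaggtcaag
PPARA probe 3: TTTTTTattttaaccttttAAAAAAgcccc
Probe 3 gave 1.06 ± 0.32 (limma adjusted p = 0.0271 over genes), with levels of -1.25 to 1.20 (median -0.32) in HF_RFIpl and -2.04 to 0.61 (median -1.26) in LF_RFIneg. Probe 1 was called lower (-0.52, adjusted p = 0.0358 over probes), and probe 2 was not called (0.22, adjusted p = 0.637). No direction is given for PPARA.

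Over 4 lists of lipid storage, release and uptake, 9 genes were called lower and 1 higher. In lipolysis and the lipid droplet 4 of 15 members were called, all lower (list median -0.16). PLIN2, a coat protein of lipid droplets, was at 1.85 to 3.31 (median 2.53) in HF_RFIpl and at 2.41 to 4.68 (median 3.31) in LF_RFIneg (-0.95 ± 0.21, limma adjusted p = 0.0034). MGLL, which releases the last fatty acid from monoglycerides, was at 2.39 to 3.5 (median 2.83) against 2.79 to 4.44 (median 3.71), a difference of -0.76 ± 0.16 (adjusted p = 0.00195). The droplet proteins CIDEA (-0.50 ± 0.14) and CIDEB (-0.29 ± 0.09) were the others. In triglyceride synthesis GPD1 (-0.29 ± 0.08, with 3 of 5 probes called) and DGAT1 (-0.39 ± 0.14) were called lower and PCK2 higher (0.54 ± 0.12) of 13 (list median -0.16). In fatty acid uptake 2 of 9 were called lower (list median -0.07), FABP4 (-0.21 ± 0.06, with 3 of 8 probes called) and SLC27A1 (-0.21 ± 0.07, with 1 of 2 probes called). With 75th percentile scaling or quantile normalization 0 members of this list were called, and the list median was -0.01. In cholesterol synthesis and uptake 1 of 18 was called, lower (list median -0.18).

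**Figure D4:**
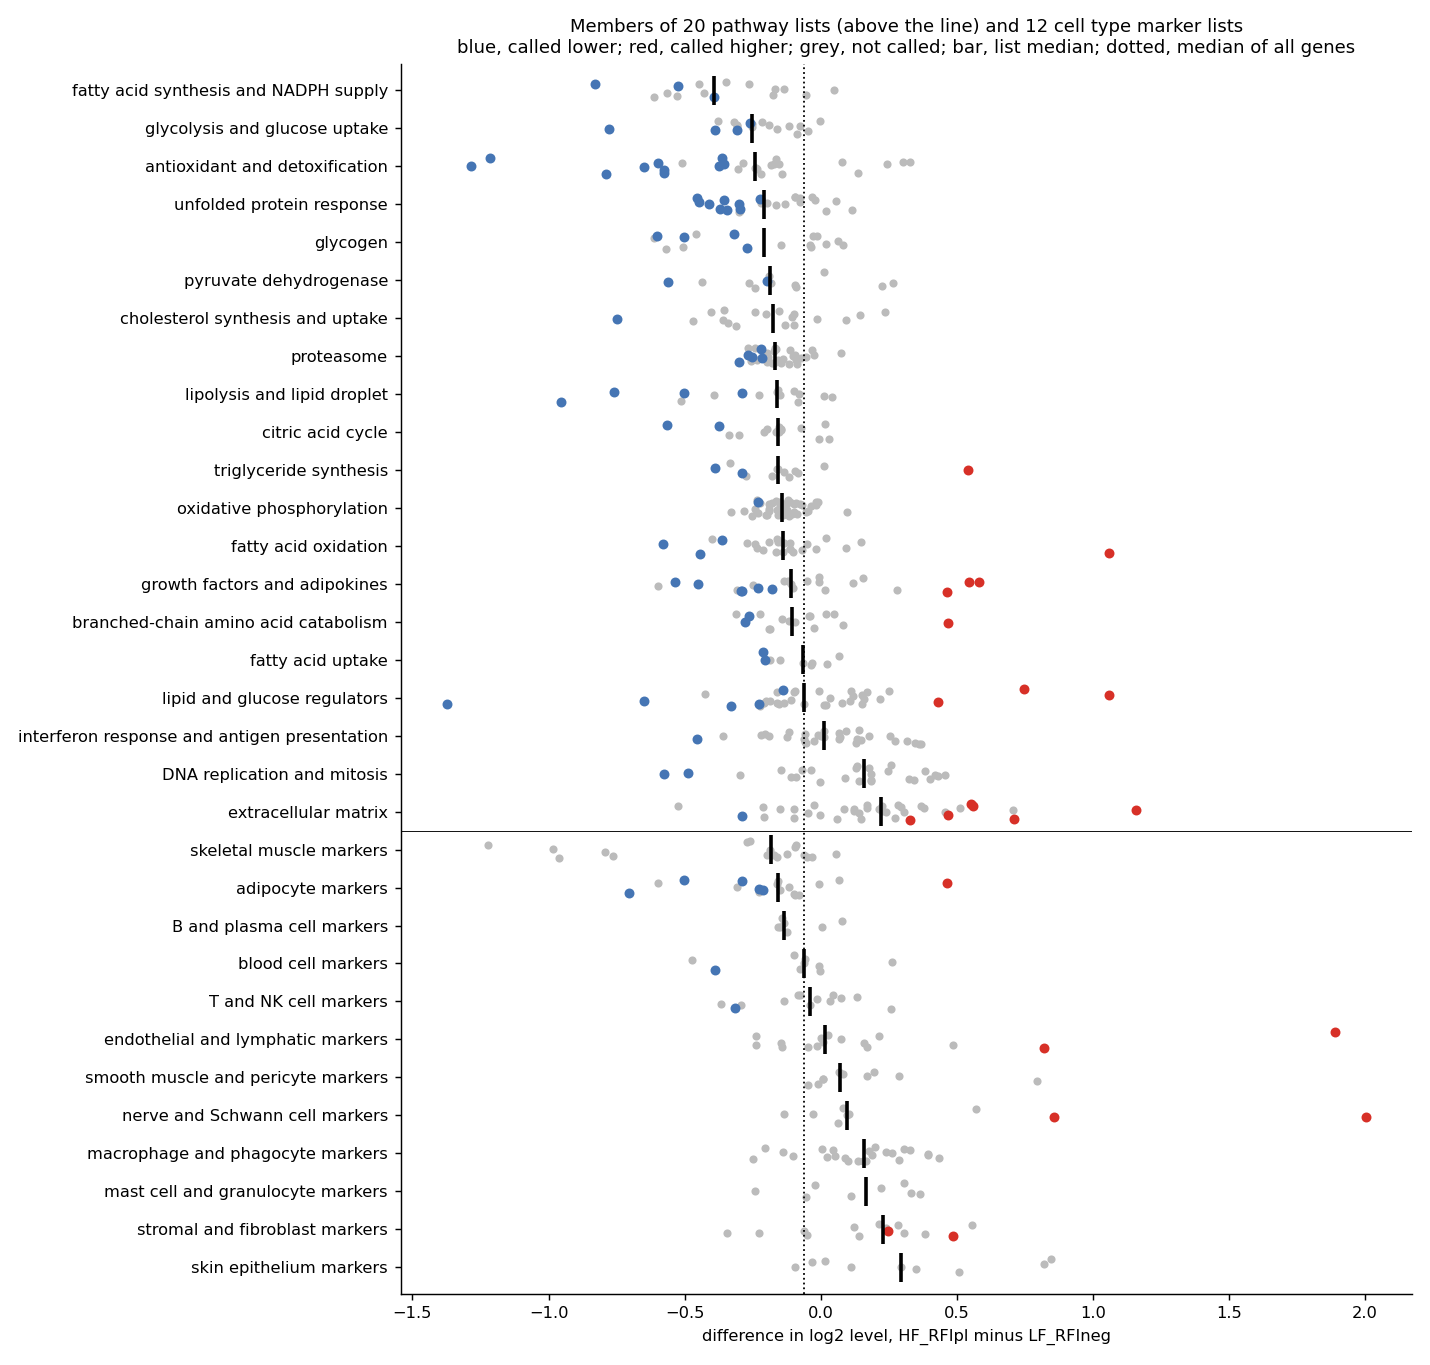
Log2 difference, HF_RFIpl minus LF_RFIneg, of each tested member of 20 pathway lists (above the line) and 12 cell type marker lists, with members called lower in blue, called higher in red and not called in grey, a bar at the list median and a dotted line at the median of all genes (-0.06). Antioxidant and unfolded protein response genes hold 10 and 9 blue points and no red one, and extracellular matrix genes 6 red points and 1 blue.

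Antioxidant and detoxification genes had the largest number of calls of any list, 10 of 27, all lower, with a median of -0.24. TXNRD1, which keeps thioredoxin reduced, nearly separated the groups, with 3.53 to 4.68 (median 4.46) in HF_RFIpl and 4.59 to 5.55 (median 5.15) in LF_RFIneg, so that 11 HF_RFIpl arrays were below every LF_RFIneg array (-0.79 ± 0.11, 1.73-fold, limma adjusted p = 4.6e-05). All 7 of its probes were called, from -1.03 to -0.72. The mitochondrial superoxide dismutase SOD2 was at 4.0 to 4.76 (median 4.30) against 4.17 to 5.39 (median 4.93), a difference of -0.57 ± 0.11 (adjusted p = 0.000717). GCLM, a subunit of the enzyme that starts glutathione synthesis, was at -1.40 to -0.31 (median -0.80) against -0.72 to 0.51 (median -0.36), a difference of -0.58 ± 0.12 (adjusted p = 0.00177). Catalase CAT was at 7.13 to 7.69 (median 7.42) against 7.47 to 8.08 (median 7.83), with all 10 probes called (-0.36 ± 0.08, adjusted p = 0.00306). The paraoxonases PON1 and PON3, paralogs whose probes were not checked for shared sequence, had the largest differences in the list, -1.28 ± 0.29 (adjusted p = 0.00384) and -1.22 ± 0.28 (adjusted p = 0.00416). They are named here after their values were seen. In the opposite pair they were called higher, at 1.18 and 1.15 (adjusted p = 0.036 for both).

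In the unfolded protein response 9 of 24 members were called, all lower (list median -0.21, and -0.03 in the opposite pair). ATF4, the transcription factor of the integrated stress response, was at 7.49 to 7.96 (median 7.71) in HF_RFIpl and at 7.78 to 8.32 (median 8.15) in LF_RFIneg, with 9 HF_RFIpl arrays below every LF_RFIneg array and all 7 probes called (-0.41 ± 0.08, limma adjusted p = 0.000879). The chaperone partner DNAJC3 was at 1.49 to 2.12 (median 1.85) against 1.95 to 2.46 (median 2.17), a difference of -0.35 ± 0.07 (adjusted p = 0.00117). The endoplasmic reticulum chaperones HSPA5 and HYOU1 differed by -0.45 ± 0.13 each (adjusted p = 0.0189 for both), with -0.21 and -0.20 within the first scan date and -0.70 within the second for both. In the proteasome 5 of 32 members were called, all lower, and 31 of the 32 had differences below 0 (list median -0.17). The differences were small, from -0.22 for PSMD11 and PSMD12 to -0.30 for PSMB6, and PSMD7, a subunit of the regulatory particle, had the smallest adjusted p (-0.27 ± 0.05, 0.00123). With 75th percentile scaling or quantile normalization 2 proteasome members were called, and 6 and 5 members of the unfolded protein response.

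In the extracellular matrix 6 of 38 genes were called higher and 1 lower, with a median of 0.22 (0.03 in the opposite pair). Elastin, ELN, was at 4.86 to 6.95 (median 5.99) in HF_RFIpl and at 3.81 to 5.76 (median 4.76) in LF_RFIneg, with 8 HF_RFIpl arrays above every LF_RFIneg array (1.16 ± 0.27, 2.23-fold, limma adjusted p = 0.005). The collagen chain COL6A2 was at -0.14 to 0.97 (median 0.40) against -0.70 to 0.47 (median -0.15), a difference of 0.56 ± 0.15 (adjusted p = 0.0167, 2 of 3 probes called). The proteoglycan VCAN (0.71 ± 0.24, adjusted p = 0.0494, 1 of 2 probes called) lost its call without any of 5 single arrays. TIMP3, an inhibitor of matrix proteases, was the gene called lower (-0.29 ± 0.09, adjusted p = 0.0372) and lost its call without LF_RFIneg replicate 8. The number of matrix genes called was 13 with 75th percentile scaling and 12 with quantile normalization. Stromal and fibroblast markers stood at a median of 0.23, with 2 of 14 called higher (PDGFRA, 0.48 ± 0.16, and CD34, 0.25 ± 0.09) and 5 with 75th percentile scaling, 4 with quantile normalization and 1 with normexp or in the deposited table. Their summed level ran from 1333 to 2080 in HF_RFIpl and from 979 to 1875 in LF_RFIneg, relative to an array median of 1, and its part in the matrix result was not tested. In whole tissue, fewer cells of a type and less RNA per cell cannot be told apart.

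Of the hormones and growth factors 6 of 23 were called lower and 3 higher (list median -0.11). Both adiponectin receptors were lower, ADIPOR2 at 8.57 to 9.19 (median 8.86) in HF_RFIpl against 8.87 to 9.32 (median 9.20) in LF_RFIneg (-0.29 ± 0.06, limma adjusted p = 0.00257), and ADIPOR1 by -0.29 ± 0.08 (adjusted p = 0.0216), with 4 of 5 and 1 of 3 probes called. Adiponectin itself, ADIPOQ, was at 8.93 to 9.45 against 8.56 to 9.39 (-0.01 ± 0.08, adjusted p = 0.965), and its sign turned with scaling. Leptin, LEP, was at 2.21 to 4.11 (median 3.79) against 3.48 to 4.99 (median 4.0) and missed the cut-off at its brightest probe (-0.60 ± 0.23, adjusted p = 0.09). The 3 LEP probes gave -0.67 to -0.60, and 2 of them were called lower in the fit over probes. The activin subunit INHBA was lower (-0.23 ± 0.07), and CFD, the complement factor adipsin made by adipocytes, was higher (0.46 ± 0.12, adjusted p = 0.0131).

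Among regulators of lipid and glucose metabolism 5 of 35 were called lower and 3 higher (list median -0.06), and those counted as higher include PPARA through its probe 3, for which no direction is given above. SOX9, a transcription factor of early mesenchymal cells, was at -4.17 to -0.18 (median -2.69) in HF_RFIpl and at -2.58 to -0.25 (median -0.96) in LF_RFIneg, so that 6 HF_RFIpl arrays were below every LF_RFIneg array (-1.37 ± 0.35, 2.59-fold, limma adjusted p = 0.00916). The nuclear receptors PPARD (-0.65 ± 0.19, adjusted p = 0.0232, with 1 of 3 probes called and a range of -0.65 to -0.06) and RXRA (-0.33 ± 0.08, adjusted p = 0.005) were lower as well, whereas PPARG, the receptor that maintains adipocytes, was not called (-0.09 ± 0.08, adjusted p = 0.516). IRS1, which carries the insulin signal from its receptor, was called higher through 1 of its 4 probes (0.43 ± 0.12, adjusted p = 0.0205), and the probes ranged from -0.09 to 0.43. Of 26 genes of DNA replication and mitosis 17 had differences above 0 (list median 0.16) and 2 were called, both lower (7.69%), the cyclin CCNE1 (-0.49 ± 0.14) and the cell cycle inhibitor CDKN1A (-0.58 ± 0.18). In the interferon and antigen presentation list IRF7 alone of 31 was called (list median 0.01, IRF7 -0.45 ± 0.16, adjusted p = 0.0659, 2 of 3 probes called, lost without any of 11 single arrays and with 75th percentile scaling, quantile normalization or normexp).

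Markers of cell types were examined beside these lists. The adipocyte markers had a summed level of 3304 to 4455 in HF_RFIpl and 3530 to 4581 in LF_RFIneg, to which their brightest probes contribute most, and the mean level of FABP4 was 9.64 and 9.86 and that of ADRB3, named after its values were seen, -3.84 and -3.68. Of 18 adipocyte markers 5 were called lower and 1 higher (list median -0.16), including FABP4, CIDEA and GPD1, which are also counted in the lipid lists above, and their part in those results was not tested. Nerve and Schwann cell markers gave 2 calls of 9, both higher, among them myelin basic protein MBP (0.86 ± 0.31, limma adjusted p = 0.0712, lost without any of 15 single arrays). Of 10 MBP probes, at -0.16 to 0.90, 3 were called. HF_RFIpl replicate 8 was the highest array for MBP, and without it the difference was 0.60. The summed level of the nerve markers was 78.3 to 177 in HF_RFIpl and 79.1 to 128 in LF_RFIneg. Among 16 endothelial and lymphatic markers CCL21 and PROX1, the transcription factor of lymphatic identity, were called higher. The list median was 0.02, and 6 of the 16 were below 0. The lymphatic markers LYVE1 (0.49) and PDPN (-0.15), named after their values were seen, were not called. PROX1 was at -2.56 to -1.24 (median -1.91) against -4.29 to -1.67 (median -2.75), a difference of 0.82 ± 0.24 (adjusted p = 0.026) that was 0.14 within the first scan date and 1.5 within the second.

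No marker of macrophages (24 tested), B cells (7), mast cells and granulocytes (8), skeletal muscle (19), smooth muscle (11) or skin (9) was called. This depended on the processing, since 1 macrophage marker was called with 75th percentile scaling, quantile normalization, normexp and in the deposited table, 1 mast cell or granulocyte marker with 75th percentile scaling and quantile normalization, and 1 skin marker within the second scan date. The macrophage markers had a median of 0.16 and a summed level of 98.8 to 218 in HF_RFIpl and 81.9 to 247 in LF_RFIneg. Skeletal muscle markers had a median of -0.18 and a summed level of 62.9 to 91.6 against 68.3 to 113, and MYL1, a light chain of fast muscle myosin, differed most (-1.22 ± 0.65, limma adjusted p = 0.237). In T and NK cells the receptor chain CD247 was called lower (-0.32 ± 0.09, adjusted p = 0.0202) of 13, and in blood cells EPB42 (-0.39 ± 0.12, adjusted p = 0.042) of 9. Of 3 CD247 probes 1 was called, and the other EPB42 probe gave -0.03 and was not called. With 75th percentile scaling no blood cell marker was called, and 2 T and NK cell markers were called in the deposited table.

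The opposite pair served to find where the pattern was particular to HF_RFIpl against LF_RFIneg. Of the 996 genes called lower in HF_RFIpl, 79.1% were below 0 in HF_RFIneg minus LF_RFIpl (57.6% of all genes were), and of the 390 called higher, 64.4% were above 0 there (42.4% of all genes were). In all, 63 genes were called in both pairs, 51 of them with the same sign. They made up 4.55% of the genes called for HF_RFIpl minus LF_RFIneg and 39.6% of those called in the opposite pair. SOX9 was such a gene, with -1.37 and -1.75 in the pairs, and HK2 another, with -0.78 and -0.81. Neither was called for the difference between the pairs (limma adjusted p = 0.911 and 0.989).

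A total of 131 genes were called for the difference between the pairs, 44 with a higher and 87 with a lower value in HF_RFIpl minus LF_RFIneg. This count was not stable. It was 52 with slide position as a block and 501 with array weights, 115 within the first scan date and 0 within the second (limma, 758 genes at an unadjusted p under 0.05), and 257 without LF_RFIneg replicate 7. Of these, 101 were also called in that pair and 30 were not, and 128 had opposite signs in the pairs. WDHD1 had the smallest adjusted p for this difference, with 1.39 in the pair and -0.51 in the opposite pair (limma adjusted p = 0.000606 for the difference). ENPP6 was at -0.24 to 1.46 (median 0.05) in HF_RFIpl and at -1.64 to 0.42 (median -1.27) in LF_RFIneg, and its differences were 1.23 and -0.78 (0.00116 for the difference). OAZ3 was at -0.82 to 2.09 (median 1.61) against -1.04 to 1.64 (median -0.59), with differences of 1.37 and -1.25 (0.00618). In the other direction PLIN2 differed by -0.95 and 0.62 (0.00445), TRAF6 by -1.41 and 0.45 (0.0102) and SUCLA2 by -0.56 and 0.37 (0.0181). At its brightest probe, each of these genes thus had the RFIpl group on the same side of the RFIneg group in both pairs. They were chosen from the genes called for this difference, so that this pattern was largely fixed by the choice. The other TRAF6 probe gave -0.36 and -0.05 and another WDHD1 probe 0.37 and 0.10, with the same sign in both pairs.

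Several of the largest differences did not pass this test. CES1 was at -2.90 and 0.18 in the pairs (adjusted p = 0.0995 for the difference, limma), MT1A at -1.90 and 1.01 (0.086) and CCL21 at 1.89 and -0.12 (0.115). Among genes not called for HF_RFIpl minus LF_RFIneg, those with the smallest adjusted p for the difference were PLCB1, a phospholipase of receptor signaling (-0.21 and 0.36, 0.0159, although its other probe was called lower in the pair at -0.47), C14ORF101 (-0.04 and 0.38, 0.0167) and CSE1L, a nuclear export factor (0.15 and -0.21, 0.0191).

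**Figure D5:**
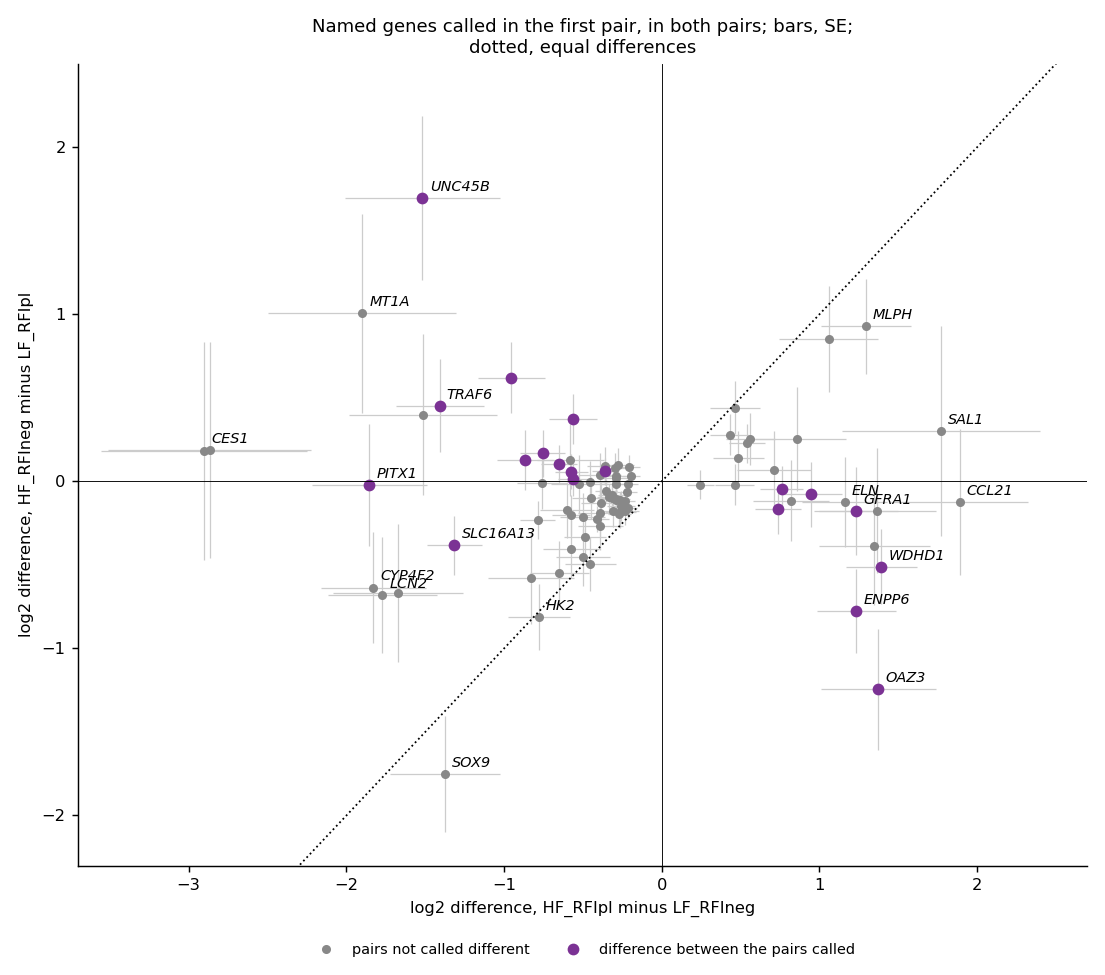
Log2 difference in HF_RFIpl minus LF_RFIneg (horizontal) and in HF_RFIneg minus LF_RFIpl (vertical) ± SE for named genes called in the former, a few of them left out, with a dotted line where both are equal. Purple points are genes called for the difference between the pairs, such as TRAF6 (-1.41 and 0.45) and OAZ3 (1.37 and -1.25), while SOX9 (-1.37 and -1.75) and HK2 (-0.78 and -0.81) lie near the dotted line.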

How the data were processed

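SCAT RNA of 48 pigs (4 groups of 12, 1 pig per array, grouped by the sample titles) had been labelled with Cy3 and hybridized by the authors to custom porcine arrays, 8 per slide. The deposited scanner files hold spot intensity on a linear scale from Feature Extraction 10.7.3.1, background-subtracted by that software, with a flag for spots well above background. The authors also deposited log2 values of 38987 probes, which equal log2 median signal minus the array median (largest difference 4.87e-09) and were used as an alternative. Per the submitters' processing notes, R 2.10.0 was used.

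Of 60305 probes (1319 control spots left out), those with the flag set on 9 or more of a group's 12 arrays (44356) were kept, with 156 outlier spots set to missing and no spot saturated (0). Log2 processed signals were centered on the array median of these probes. Symbols came from the Sscrofa11.1 gene tables through the gene name (14440 probes), accession (9422) or gene number (1586), or from the array files alone (1321). All probes are listed as unmapped, so no positions are given. The brightest probe per symbol gave 11107 genes.

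Group means of all 48 arrays were fitted with limma 3.58.1 (lmFit, eBayes with trend) in R 4.3.3, two-sided, which moderates the spread of the two-way model in the study's methods. Calls needed a raw p under 0.01, a fold over 1.1 (for the sum and the difference of the pairs, of the summed contrast) and a Benjamini-Hochberg adjusted p under 0.08 over all genes or probes. The fit was checked on simulated data. Named genes are the 10 with the largest difference in each direction, the 5 in each direction also called for the sum and difference of the pairs, up to 4 per list by adjusted p, 3 called for the difference alone, and 12 genes of lipid metabolism; others are marked as chosen after their values were seen. A few named genes enter the counts only and are not reported here. Groups, lists and genes were chosen with earlier results of these data known, so lists are described by counts and medians without a test.

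Alternatives were the scaling, background correction, probe filter, deposited table, slide, scan date, slide position, array weights, signal level, replicate number, probe averaging and the arrays in the fit. Leaving out single arrays was added after seeing the data.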

Additional observations from a re-analysis of the deposited data

How the results depend on the processing

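The count for HF_RFIpl minus LF_RFIneg stayed within 1.5 times its value of 1386 under 14 of 17 alternatives (1092 without a probe filter to 2023 with array weights). It was 896 with slide position as a block, and 190 and 284 within the scan dates, which hold 6 arrays of each group. Probes numbered 762 and 1028 there. Leaving out single arrays gave 1021 to 1724.

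The opposite pair was less stable. Its 159 genes became 48 with position as a block, 921 with array weights, 86 without a filter, 84 with only its own arrays in the fit, 373 with signal level as a covariate, 307 with slide as a block, and 340 and 0 within the scan dates. Single arrays moved it from 47 (without HF_RFIneg replicate 10) to 247 (without LF_RFIpl replicate 10). The count for the difference between the pairs, 131, became 52 with position, 501 with array weights, 208 with scan date and 234 with slide as a block, and 0 within the second scan date, and ranged from 103 to 257 (without LF_RFIneg replicate 7). The count for the sum, 1528, was 664 and 262 within the scan dates and 1392 to 1729 without single arrays. The causes were not tested.

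Replicate numbers are shared by the groups and go with the slide and the scan date, but do not name a shared litter or day of tissue collection. Over all pairs of groups, same-numbered arrays correlated at up to 0.45 (replicate 6 of LF_RFIneg and HF_RFIneg) and down to -0.22 (replicate 8 of HF_RFIneg and HF_RFIpl). In 6 of 12 pairs of same-numbered HF_RFIpl and LF_RFIneg arrays the deviations correlated above 0.1 (r from -0.15 to 0.43, median 0.11), and 3 of 12 HF_RFIpl arrays correlated best with their own number, so the numbers were not taken as pairing. With the replicate block 1894 genes and 7238 probes were called for the pair, 370 for the opposite pair, 304 for the difference and 2039 for the sum.

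Of the 93 named genes that were called, 21 lost the call with slide position as a block, 19 with 75th percentile scaling, 15 each with quantile normalization and with signal level as a covariate, 14 without a filter, 13 with normexp and 0 with slide or scan date as a block. Within the scan dates 77 and 65 lost it. The replicate block ended the calls of IRF7 and SAL1. Of the named genes, 4 changed sign under an alternative, none of them called. ADIPOQ (-0.01) was 0.0434 with 75th percentile scaling, 0.0303 in the deposited table, 0.0034 as the mean of its probes, 0.0459 with normexp, 0.0543 with quantile normalization, and 0.108 within the first scan date. C14ORF101 (-0.04) was 0.0065 with 75th percentile scaling, 0.12 as the mean of its probes, 0.0072 with signal level as a covariate and 0.0194 within the second scan date. HDC turned to -0.44 within the first scan date and PAX5 to 0.10 with signal level as a covariate. Differences of dim probes such as UNC45B, DIO1, RBP2 and PITX1 are limited by signal near background.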
